A study of Mus musculus with 3 samples.

Results

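The 38 genes described here are 17 transcripts of DNA replication and the G1/S transition (the S-phase set) and 21 transcripts of G2 and mitosis (the mitotic set), chosen by gene symbol, out of 30406 genes listed in all 3 libraries. The S-phase set holds Mcm2, Mcm3, Mcm4, Mcm5, Mcm6, Mcm7, Pcna, Rrm1, Rrm2, Tyms, Gins2, Uhrf1, Cdc6, Cdt1, Slbp, Ccne1 and Ccne2. The mitotic set holds Mki67, Top2a, Birc5, Ccna2, Ccnb1, Ccnb2, Cdk1, Cdc20, Cenpf, Cenpe, Cenpa, Aurka, Aurkb, Bub1, Bub1b, Plk1, Tpx2, Ube2c, Nusap1, Kif11 and Hmmr. All 38 were found in each library, and all 38 passed the filter on low counts used for the tests, which was run over all cell classes together.

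The cells came from lumbar, thoracic and caudal intervertebral discs of mice at postnatal day 30 with the genotype shh-cre:R26R-tdTomato, in which Cre made in Shh-expressing cells and their descendants switches on the red reporter. The mice received no treatment, and there is no other group. Each of the 3 libraries pooled cells of litter-matched animals after a sort for tdTomato+ cells, and the libraries are the replicates. Discs were cut out through the bony endplates of the vertebrae, and the deposited barcodes include bone and blood cells beside disc cells. The p-values below measure the spread between these 3 pools that remains once shifts shared by all classes of a pool are removed. That spread was estimated over 25 cell classes together, with 44 residual degrees of freedom.

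A dividing cell first makes the machinery that opens and copies DNA, and later the kinases, cyclins and spindle proteins that separate the chromosomes. In mammals E2F factors act at promoters of many replication genes, whereas the DREAM and MuvB complexes act through the CHR element at promoters of many mitotic genes, often together with NF-Y at CCAAT boxes. In marrow, red cell, B cell and neutrophil precursors divide before they leave the cycle to mature, and mature neutrophils are a standard example of a cell that no longer divides.

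The promoters of the members differ by set in the letters they hold, and 4 are shown. They carry the most motif matches, counted over the windows described next, among members called in at least the median number of comparisons for their set. Hmmr, with 7 matches and called in 6 comparisons like Cdk1, came after it in alphabetical order and is not printed. Windows of 300 bases, 250 before and 50 after each RefSeq start on GRCm38.p6, were found for 32 of the 38 members (34 windows). Both strands were searched for 3 E2F motifs, the first being TTCCCGC, the next being TTGGCGC and the last being TTCGCGC. They were also searched for the CHR motif TTTGAA with its variant form TTCGAA, and for CCAAT, and matches may overlap one another. An E2F motif was present in 62.5% of the S-phase windows, 22.2% of the mitotic windows and 8.07% of all 32851 promoter windows. A CHR motif was present in 12.5% of the S-phase windows, 77.8% of the mitotic windows and 19.2% of all windows. CCAAT was present in 75.0%, 88.9% and 37.4% of the same windows. A match is a description of the letters and not a shown binding site. The 250 bases before each start are printed 5′ to 3′ on the gene's strand, with the matches in capitals, for the helicase subunit gene Mcm6 (chr1:128359706-128359955, minus strand), the DNA methylation maintenance gene Uhrf1 (chr17:56303087-56303336, plus strand), the topoisomerase gene Top2a (chr11:99024190-99024439, minus strand) and the mitotic kinase gene Cdk1 (chr10:69352913-69353162, minus strand).
Mcm6: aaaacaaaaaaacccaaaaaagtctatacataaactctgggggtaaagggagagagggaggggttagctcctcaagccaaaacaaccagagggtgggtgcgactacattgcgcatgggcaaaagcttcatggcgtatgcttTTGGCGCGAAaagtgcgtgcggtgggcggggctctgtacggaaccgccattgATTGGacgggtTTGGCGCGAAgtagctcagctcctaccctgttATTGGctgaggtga
Uhrf1: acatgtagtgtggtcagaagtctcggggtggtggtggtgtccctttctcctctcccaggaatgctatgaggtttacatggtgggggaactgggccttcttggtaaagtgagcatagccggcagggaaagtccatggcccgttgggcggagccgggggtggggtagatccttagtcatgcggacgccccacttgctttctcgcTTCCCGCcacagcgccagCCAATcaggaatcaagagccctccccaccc
Top2a: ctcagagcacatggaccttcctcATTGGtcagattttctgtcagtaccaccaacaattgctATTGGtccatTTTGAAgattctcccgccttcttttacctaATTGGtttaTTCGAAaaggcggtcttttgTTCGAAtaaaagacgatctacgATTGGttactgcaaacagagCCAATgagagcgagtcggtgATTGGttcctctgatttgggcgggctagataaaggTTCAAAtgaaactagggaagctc
Cdk1: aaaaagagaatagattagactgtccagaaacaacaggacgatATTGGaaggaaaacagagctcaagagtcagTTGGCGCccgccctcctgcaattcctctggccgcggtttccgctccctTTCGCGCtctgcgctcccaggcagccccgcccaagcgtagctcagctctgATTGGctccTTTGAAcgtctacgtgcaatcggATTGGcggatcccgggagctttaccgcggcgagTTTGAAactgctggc
Mcm6 held 4 E2F matches and no CHR match in these bases, and Uhrf1 held 1 E2F match. Top2a held 4 CHR matches and 6 CCAAT matches with no E2F match, and Cdk1 held 2 E2F, 2 CHR and 3 CCAAT matches.

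The libraries held 7430, 11767 and 11032 barcodes with 64695292, 145925353 and 137188648 UMIs (unique molecular identifiers, each a captured transcript). The 38 genes took 197855, 729923 and 652301 of these UMIs. Libraries 2 and 3 listed 224 barcodes in common, against 24 for libraries 1 and 2 and 29 for libraries 1 and 3, and without all of these barcodes the counts of genes called in the 8 comparisons below, in their order, were 38, 38, 27, 33, 30, 10, 5 and 29. After filters on genes detected, mitochondrial UMIs and doublet score, 5643, 10283 and 9976 cells remained and were gated into 26 classes by markers outside the 38 genes. Connective classes were uneven between libraries, with 528, 152 and 25 nucleus pulposus cells and 43, 215 and 661 osteoblasts. The 4 nucleus pulposus markers (Krt8, Krt18, Krt19 and T) were each found in at least 78.4% of the cells of that class in each library.

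Within each set the genes were found in the same cells when cells of all gated classes were pooled. To compare cells of unequal depth, each cell was thinned at random to 2000 UMIs and shallower cells were left out. Mki67, the classic proliferation antigen, was found in 59.3%, 65.1% and 59.5% of thinned cells with at least 3 other mitotic genes in libraries 1, 2 and 3, and in 2.53%, 2.88% and 2.71% of cells with none of the others. Mcm5, a subunit of the replicative helicase, was found in 32.5%, 30.2% and 38% of cells with at least 3 other S-phase genes and in 1.45%, 1.87% and 2.53% of cells with none. Across all 38 genes the ratio of these 2 shares ran from 5.11 for the histone mRNA binding protein Slbp in library 1 to 94.4 for the spindle assembly factor Tpx2 in library 2. The share was thus higher beside other genes of the set for each of the 38 genes in each library. These ratios pool classes that differ in how often the genes are found, as given below, and were not computed within a class. Slbp and Pcna, the sliding clamp of replication, had low ratios and were also the S-phase genes often seen alone, in 8.11% to 8.87% and 6.72% to 7.56% of cells with no other S-phase gene.

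The share of cells with at least 3 genes of a set was low in mature neutrophils and in disc and bone classes, and high in red cell precursors. In mature neutrophils, gated by Cxcr2, Il1b and 5 other markers, 2 of 123, 0 of 264 and 1 of 217 thinned cells held at least 3 S-phase genes, which is 1.63%, 0% and 0.461%. Cells that also passed the gate for secondary granule genes such as Camp were kept apart as another class. Thinned means of that class were 1.45% ± 1.53 for the S-phase set and 3.25% ± 3.15 for the mitotic set (SD, n = 3 libraries). No thinned mature neutrophil held 3 mitotic genes, which allows shares of up to 2.44%, 1.14% and 1.38% when a count of 0 is read as at most 3 cells. Without thinning the mature neutrophil means were 0.810% ± 0.742 for the S-phase set and 0.734% ± 0.356 for the mitotic set (SD, n = 3 libraries), at median depths of 2149, 2902 and 2564.5 UMIs. These values are the background against which the other classes are read. Intervals are exact Clopper-Pearson 95% intervals, whose upper ends for a count of 0 lie above these limits, and both cover counting error only. With 3 libraries an exact paired permutation test of a share cannot give a p below 0.25, and no test of shares was run.

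**Figure D1:**
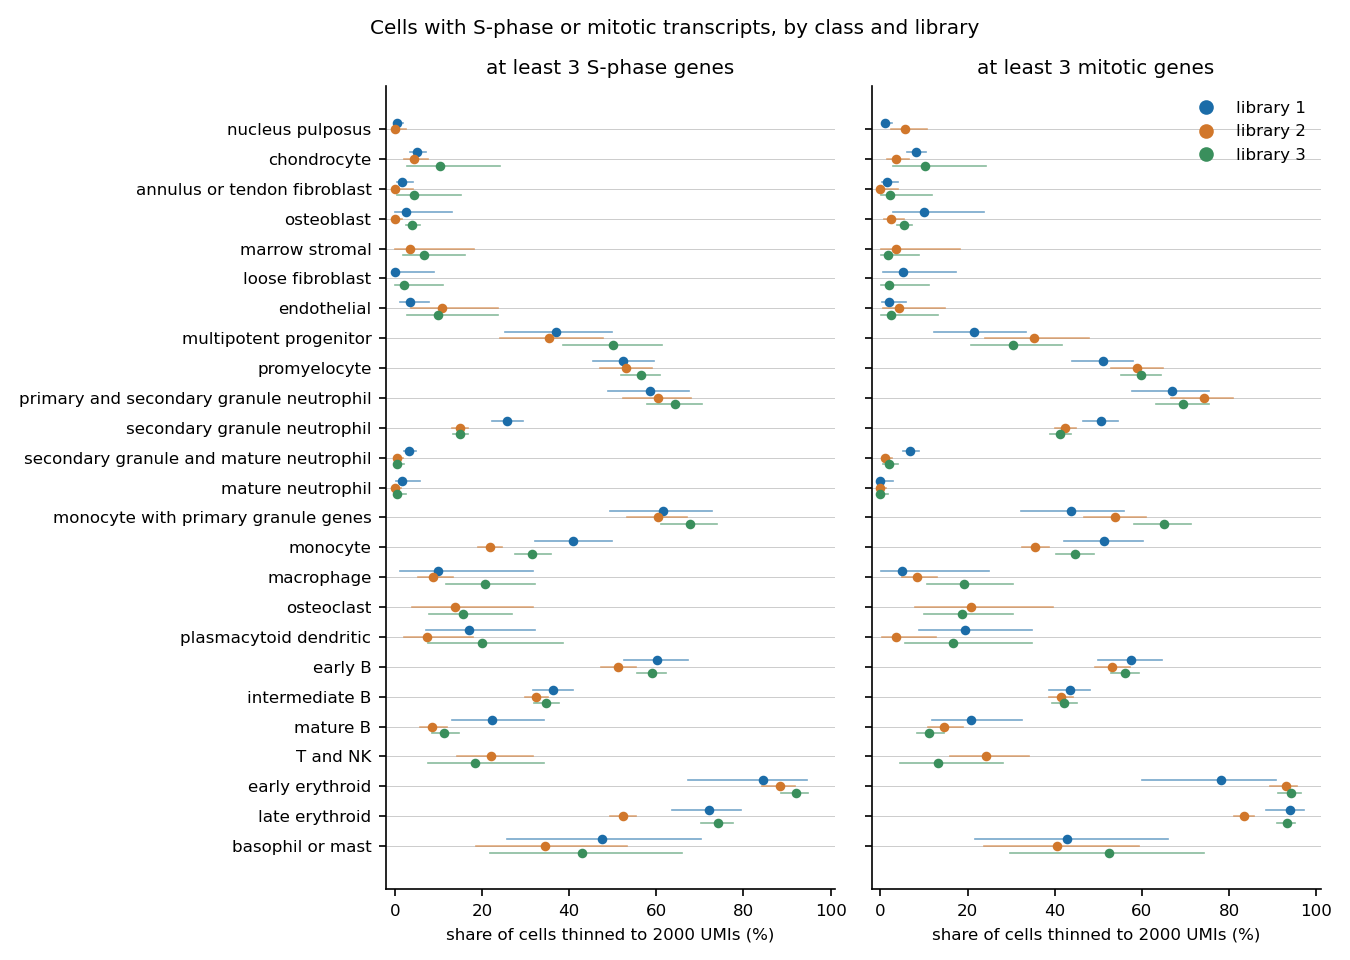
Share of cells thinned to 2000 UMIs with at least 3 S-phase genes (left) or at least 3 mitotic genes (right), in percent, for each class and library with at least 20 such cells; points are libraries and lines are exact 95% intervals. Early erythroid cells lie between 78.1% and 94.2%, and mature neutrophils lie between 0% and 1.63%.

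Among disc and bone classes the shares were low. Chondrocytes, gated by Col2a1 and other cartilage genes, held at least 3 mitotic genes in 54 of 660, 9 of 255 and 4 of 39 thinned cells, which is 8.18% (interval 6.21% to 10.5%), 3.53% (1.63% to 6.59%) and 10.3% (2.87% to 24.2%). Osteoblasts did so in 10.0%, 2.36% and 5.34%, and annulus or tendon fibroblasts in 1.63%, 0% and 2.22%. Nucleus pulposus cells, the notochord-derived core of the disc, did so in 4 of 374 cells (1.07%, 0.292% to 2.72%) and 8 of 142 cells (5.63%, 2.46% to 10.8%) in libraries 1 and 2, while library 3 had only 13 cells deep enough. Mature neutrophils gave 0% in these libraries, with intervals of 0% to 2.95% in library 1 and 0% to 1.39% in library 2. The intervals cover counting error among the cells of 1 pool only, so whether they overlap does not compare the classes. With a preset doublet rate, which removed more cells, the mean mitotic share of nucleus pulposus cells was 1.49% in place of 3.35%.

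The S-phase shares of the connective classes differed with and without thinning. Thinned means were 6.57% ± 3.22 in chondrocytes, 2.16% ± 2.01 in osteoblasts and 2.02% ± 2.25 in annulus or tendon fibroblasts (SD, n = 3), and 0.267% ± 0.378 in nucleus pulposus cells (n = 2). Without thinning the means over 3 libraries were 36.2%, 32.1%, 30.9% and 10.1% for the same classes. Median depths ran from 8564 to 19398 UMIs in chondrocytes and osteoblasts, against 2149 to 2902 in mature neutrophils, so the unthinned shares are not compared with the background.

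In blood classes the shares were higher. Early erythroid cells, gated by Klf1, Gata1 and other early red cell markers, held at least 3 S-phase genes in 88.3% ± 3.87 and 3 mitotic genes in 88.5% ± 8.97 of thinned cells (98.6% and 99.1% unthinned). Promyelocytes, the first neutrophil class with primary granule genes such as Mpo and Elane, gave 54.0% ± 2.12 and 56.6% ± 4.86 (97.6% and 98.0% unthinned). Early B cells, gated by Igll1, Vpreb1, Vpreb2 and Dntt beside general B markers, gave 56.8% ± 4.79 and 55.6% ± 2.16 (69.9% and 63.6% unthinned). These are SDs over 3 libraries, and in each library all 3 classes lay above all connective classes and mature neutrophils for both sets.

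Levels of most single genes were highest in erythroid cells. Plain CPM, the UMIs of a gene scaled to the UMI total of the class and library alone, were highest in late erythroid cells for 17 of the 21 mitotic genes and 7 of the 17 S-phase genes, and highest in early erythroid cells for 8 S-phase genes. Mki67 stood at 1648, 1219 and 1176 plain CPM in late erythroid cells, at 456, 435 and 410 in early B cells, at 13.1, 13.3 and 14 in nucleus pulposus cells and at 0, 12.1 and 3.58 in mature neutrophils. Late erythroid cells were above early B cells in each library. Nucleus pulposus cells were above mature neutrophils in each library on this scale, but narrowly where the values were 13.3 and 12.1. In library 3 the nucleus pulposus sum held only 71370 UMIs. With the scaling used in the tests below, the Mki67 levels of nucleus pulposus cells and mature neutrophils overlapped, and the gene was not called. Pcna spanned less, from 396, 441 and 486 in late erythroid cells to 35.4, 26.1 and 32.3 in mature neutrophils. Its lowest library of nucleus pulposus cells, at 28.9, lay within the range of the neutrophils.

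**Figure D2:**
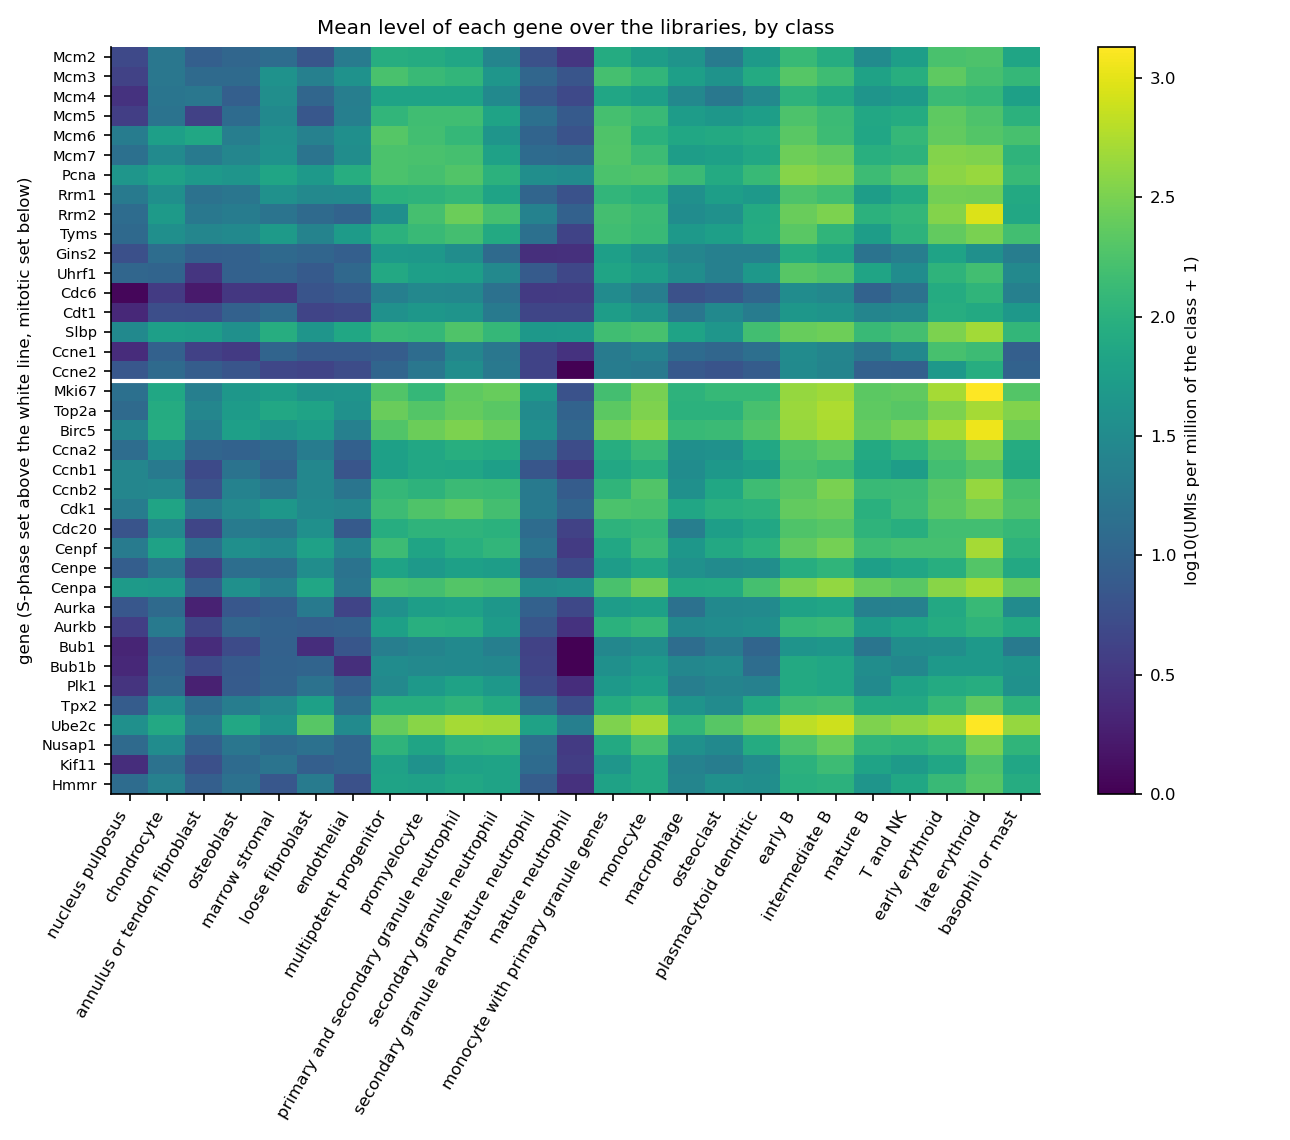
Mean level of each of the 38 genes over the libraries (color, log10 of plain CPM plus 1) in each class, with the S-phase set above the white line. Erythroid and early B columns are bright for most genes, and the mature neutrophil column is darkest at Bub1, Bub1b and Ccne2, which had 0 UMIs there.

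Neutrophil precursors had higher levels of both sets than mature neutrophils. For tests, UMIs were summed per class and library and compared with edgeR's quasi-likelihood test with the library as block, and a gene is called at an adjusted p under 0.05 over 14215 genes. Levels in the tests are CPM of the class sums after TMM scaling. In promyelocytes against mature neutrophils 36 of 38 genes were higher and none lower, where 27.3% of all genes tested were called higher, with a median log2 fold change of 3.48 against 0.27 over all genes. In cells with secondary granule genes (Camp, Ltf, Ngp and others) against mature neutrophils all 38 were higher, where 21.5% of all genes were, with a median of 4.35 against 0.34. Both comparisons share the mature neutrophil sums. On plain totals without TMM factors all 38 were higher in both, and the medians of all genes were 1.01 and 0.16.

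Mcm2, another helicase subunit, had levels of 83.1, 66.5 and 74.9 CPM in promyelocytes and 3.68, 4.99 and 2.00 CPM in mature neutrophils, a log2 fold change of 4.29 (SE 0.55, edgeR adjusted p = 6.56e-10). The thymidylate synthase gene Tyms had 106, 131 and 118 CPM against 7.36, 1.66 and 8.02 CPM, a log2 fold change of 4.53 (SE 0.61, adjusted p = 2.85e-09). Promyelocytes lay above mature neutrophils in each library for both genes, without overlap. Aurkb, a kinase of the chromosomal passenger complex, had 59.8, 93.2 and 102 CPM against 3.68, 0 and 6.01 CPM, a log2 fold change of 4.92 (SE 0.74, adjusted p = 6.38e-08). The spindle checkpoint genes Bub1 and Bub1b and the cyclin gene Ccne2 had 0 UMIs in mature neutrophils and 800, 946 and 554 UMIs in promyelocytes, so they were at least 10.3-fold, 12.1-fold and 6.90-fold higher against a limit of 3 UMIs over the 3 libraries. Slbp (108 ± 4.60 CPM against 78.9 ± 22.2, adjusted p = 0.118) and the cyclin gene Ccne1 (10.8 ± 2.96 against 3.23 ± 3.03, adjusted p = 0.0582) were not called in promyelocytes (SD, n = 3).

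Cells with secondary granule genes also had high levels of mitotic transcripts. Mki67 had 481, 477 and 457 CPM against 0, 19.9 and 6.01 CPM in mature neutrophils, a log2 fold change of 5.47 (SE 0.63, adjusted p = 1.59e-10). Cenpf, a kinetochore protein of G2 and mitosis, had 146, 242 and 265 CPM against 7.36, 3.32 and 2.00 CPM, a log2 fold change of 5.91 (SE 0.77, adjusted p = 3.76e-09). The groups did not overlap for either gene. Pcna was also higher, at 208, 200 and 162 CPM against 62.6, 43.2 and 54.1 CPM, but by a smaller log2 fold change of 1.91 (SE 0.35, adjusted p = 7.33e-06).

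The balance of the sets differed between the neutrophil classes. Mitotic UMIs divided by S-phase UMIs, a ratio that does not depend on scaling, was 1.28, 1.43 and 1.47 in promyelocytes and 2.11, 3.48 and 3.51 in cells with secondary granule genes. The second class was above the first in each library. Of the secondary granule cells positive for either set, 57.2%, 68.1% and 66.8% held 3 mitotic genes without 3 S-phase genes, against 35.3%, 37.3% and 34.9% of such promyelocytes. Thinned S-phase shares were 25.7%, 14.9% and 15% in secondary granule cells and 52.4%, 53.1% and 56.4% in promyelocytes, and mitotic shares were 50.6%, 42.4% and 41.3% against 51.0%, 58.9% and 59.8%. Unthinned means in secondary granule cells were 48.5% and 56.8%. Median depth was 11559 to 13228 UMIs in secondary granule cells and 28418 to 37635 in promyelocytes, and this pair of classes was not tested.

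**Figure D3:**
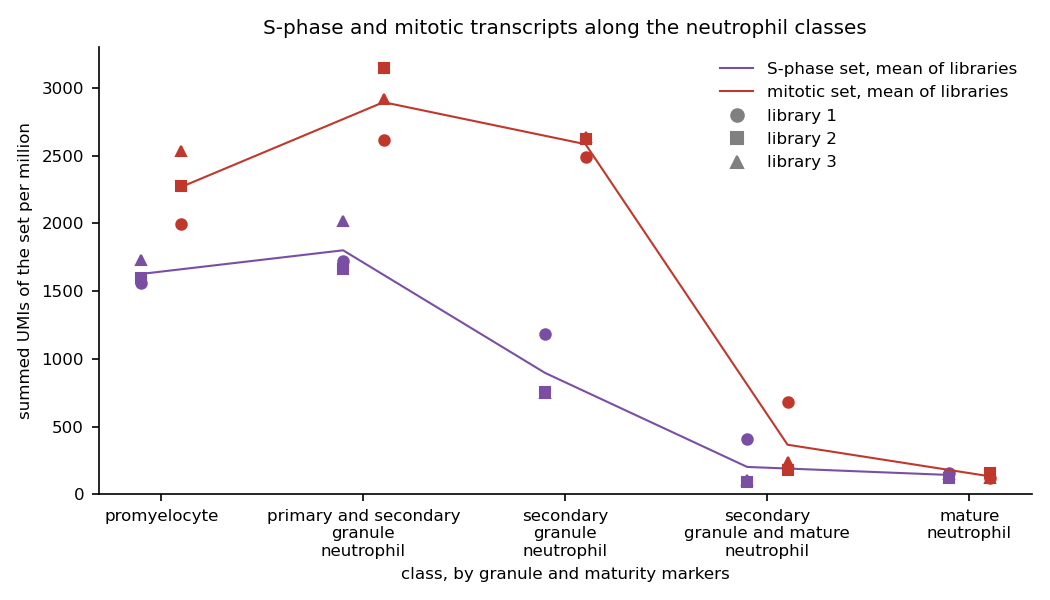
Summed plain CPM of the genes of each set (vertical axis) across neutrophil classes ordered by granule and maturity markers; symbols are libraries and lines join the means. The S-phase sum is 1182, 755 and 751 in secondary granule cells, below the promyelocytes, while the mitotic sum there is 2489, 2626 and 2640.

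Most other replication and mitosis genes were also higher in promyelocytes than in mature neutrophils. Of 18 further S-phase genes 17 were higher and none lower, and of 24 further mitosis genes 20 were higher and 2 lower. The lower ones were Pttg1 (securin), at 30.4 ± 4.26 against 121 ± 22.2 CPM (log2 fold change -2.0, SE 0.23, adjusted p = 2.99e-11), and the kinesin gene Kif23 (25.7 ± 1.69 against 56.8 ± 26.3). Of 14 CDK inhibitor and antiproliferative genes none was higher and 10 were lower, where 26.2% of all genes were lower. Btg1, an antiproliferative gene, had 51.4 ± 29.6 against 4248 ± 1898 CPM, a log2 fold change of -6.41 (SE 0.34, adjusted p = 2.01e-24). E2f2 was also lower in promyelocytes, at 6.21 ± 0.631 against 107 ± 14 CPM.

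Early B cells had higher levels of nearly all S-phase genes and of some mitotic genes than mature B cells. Against mature B cells, gated by Ms4a1, H2-Aa and other markers, 25 of 38 genes were higher in early B cells and none lower, where 14.5% of all genes were higher, with a median log2 fold change of 1.27 against 0.01 over all genes. The 25 were 16 of 17 S-phase genes (median 1.63) and 9 of 21 mitotic genes (median 1.00), and the difference between the sets was not tested. The count was 15 without library 3 and 38 with only these 2 classes in the fit.

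The replication factor gene Gins2 had 58.5, 74.3 and 74.3 CPM in early B cells and 8.14, 7.78 and 20.4 CPM in mature B cells, a log2 fold change of 2.42 (SE 0.27, adjusted p = 1.55e-10). Tyms had 145, 192 and 182 CPM against 52.9, 35.3 and 44.5 CPM, a log2 fold change of 2.03 (SE 0.35, adjusted p = 5.85e-06). Both were higher in early B cells in each library without overlap. The mitotic kinase gene Aurka had 26.6, 63.3 and 64.8 CPM against 10.2, 22.1 and 23.5 CPM, a log2 fold change of 1.40 (SE 0.34, adjusted p = 9.46e-04). Mki67 had 349, 370 and 342 CPM against 189, 224 and 119 CPM, groups that did not overlap, yet was not called (log2 fold change 1.00, SE 0.42, adjusted p = 0.0647). Top2a, with 354, 392 and 378 CPM against 199, 204 and 147 CPM, was not called either (log2 fold change 1.03, SE 0.45, adjusted p = 0.0772).

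Cells of the mature B gate were above the neutrophil background. Their median cell held 3, 4 and 3 of the 6 mature markers in libraries 1, 2 and 3, and the name stands for the gate and not for a shown stage. Thinned S-phase shares were 22.4%, 8.51% and 11.4%, and mitotic shares were 20.9%, 14.6% and 11.2% (unthinned means 16.9% and 13.7%). Classed as intermediate were B cells that passed neither the early nor the mature gate. Of these 36.4%, 32.6% and 23.4% held Rag1 or Rag2, the recombinase genes. Early B cells held them in 47.0%, 48.6% and 32.1% of cells, and mature B cells in 16.7%, 5.14% and 2.75%. Thinned shares of the intermediate cells were 36.2%, 32.5% and 34.8% for the S-phase set and 43.4%, 41.4% and 42.2% for the mitotic set (unthinned means 31.9% and 34.3%). The mean plain CPM of 15 of the 17 S-phase genes was higher in early B cells than in this intermediate class, and that of 3 of the 21 mitotic genes was, a pair of classes that was not tested. After thinning, 75.4%, 62.4% and 63.2% of early B cells positive for either set held 3 genes of both, as did 57.3%, 61.0% and 61.3% of such intermediate B cells.

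Depth differed with the members in the B lineage. Thinning to 2000 UMIs kept 67.0%, 83.4% and 63.7% of intermediate B cells and 93.1%, 96.9% and 95.7% of early B cells. With 4000 UMIs, which keeps deeper cells, the mean shares were 84.8% and 93.0% in intermediate B cells, 81.5% and 75.2% in early B cells and 52.7% and 55.5% in mature B cells for the S-phase and mitotic sets. The order of early and intermediate B cells in these shares therefore changed with the depth asked for.

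Of the regulators, Cdk6, a G1 kinase, was higher in early B cells at 145 ± 38.9 against 35.4 ± 21.2 CPM (log2 fold change 2.18, SE 0.23, adjusted p = 1.60e-11). All 18 further S-phase genes were higher, and 12 of 24 further mitosis genes were higher with none lower. Of the 14 antiproliferative genes none was higher and 8 were lower, where 16.2% of all genes were lower, with Btg1 at 169 ± 81.8 against 1180 ± 208 CPM (SD, n = 3).

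Late erythroid cells had higher levels of both sets than early erythroid cells after TMM scaling, and the result depended on that scaling. Of the 38 genes 37 were lower in early than in late erythroid cells and none was higher, where 25.8% of all genes were lower, with a median log2 fold change of -1.59 against -0.05 over all genes. All 21 mitotic genes (median -1.88) and 16 of 17 S-phase genes (median -1.06) were called. Late erythroid cells are gated by haemoglobin and other late markers, which take at least 1000 of every 10000 UMIs of each cell. Without TMM factors, so on plain class totals, the count was 15, with 1 higher and 14 lower, and the median was -0.41 against 0.88 over all genes. On plain totals 12 of the 38 genes changed sign, 10 of them S-phase genes, with all 6 helicase genes Mcm2 to Mcm7 between 0.07 and 0.51. The gene called higher in early cells there was Gins2 (0.89, adjusted p = 2.88e-04). The 14 called lower were 11 mitotic and 3 S-phase genes.

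Ube2c, the ubiquitin-conjugating enzyme of the anaphase-promoting complex, had 336, 554 and 458 CPM in early and 1450, 4832 and 2500 CPM in late erythroid cells, a log2 fold change of -2.69 (SE 0.52, adjusted p = 1.75e-05). Cenpf had 88.2, 179 and 174 CPM against 679, 1421 and 1117 CPM, a log2 fold change of -2.85 (SE 0.41, adjusted p = 2.92e-08). For both genes each late erythroid sum lay above each early erythroid sum. Rrm2, the regulated subunit of ribonucleotide reductase, had 163, 406 and 413 CPM against 1091, 2470 and 2193 CPM, a log2 fold change of -2.55 (SE 0.42, adjusted p = 7.58e-07). Mcm5 had 152, 202 and 253 CPM against 286, 340 and 433 CPM, a log2 fold change of -0.80 (SE 0.27, adjusted p = 0.0107). Gins2 was the gene not called, at 58.8 ± 17.6 against 72.6 ± 21.8 CPM (adjusted p = 0.238).

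The ratio of mitotic to S-phase UMIs, which no scaling changes, was 1.19, 1.27 and 1.13 in early and 1.83, 2.50 and 1.72 in late erythroid cells, higher in late cells in each library. Thinned S-phase shares were 84.4%, 88.4% and 92.1% in early and 72.0%, 52.4% and 74.1% in late cells, whereas mitotic shares were 78.1%, 93.0% and 94.2% against 93.9%, 83.5% and 93.3%. Unthinned means in late cells were 76.3% and 94.8%. The S-phase share was lower in late cells in each library, and the mitotic share had no common direction.

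Erythroid cells were also ordered by the share of their UMIs in late markers. Where late markers took 10% to 30% of UMIs, 95%, 98.3% and 99.5% of cells held 3 S-phase genes and 100%, 98.3% and 98.9% held 3 mitotic genes. Where they took 60% to 100%, the shares were 13.6%, 1.75% and 15.8% for the S-phase set and 68.2%, 50.1% and 73.7% for the mitotic set. Both sets were thus less often found in the cells richest in late markers than in this middle group, in each library. In the cells poorest in late markers, with under 1%, the shares were 79.2%, 75.5% and 85.2% for the S-phase set and 70.8%, 87.1% and 90.3% for the mitotic set. Because those markers leave fewer of the 2000 UMIs for other genes, the shares were recomputed with marker UMIs left out and 1000 of the remaining UMIs drawn. They were then 13.6%, 4.39% and 23.1% for the S-phase set and 72.7%, 65.2% and 85.4% for the mitotic set in the cells richest in late markers. In the cells poorest in them the shares were then 45.8%, 47.2% and 61.8% for the S-phase set and 45.8%, 50.7% and 65.2% for the mitotic set. Against these poorest cells the richest had a lower S-phase share but a higher mitotic share in each library on this measure. Median depth also differed, at 30368 to 40015 UMIs in the poorest and 6247 to 6983.5 in the richest thinned cells.

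**Figure D4:**
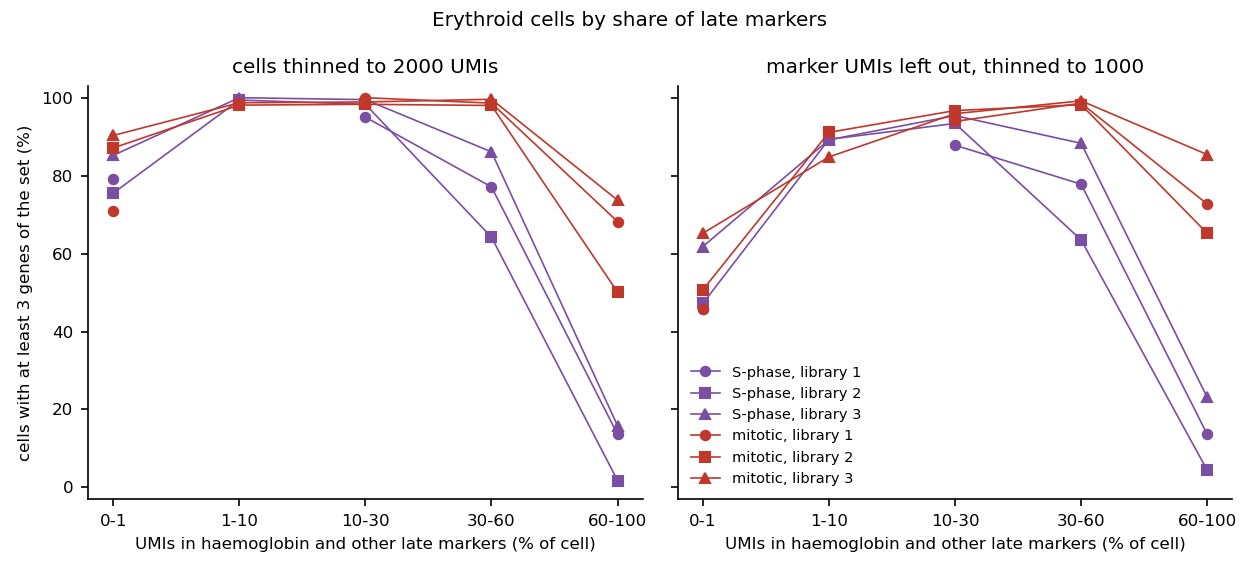
Share of erythroid cells with at least 3 genes of each set (percent, vertical axis) by the percent of the cell's UMIs in late markers, with all UMIs (left) and with marker UMIs left out (right); points are libraries, and bins under 20 cells are not drawn. In the last bin the S-phase share is 1.75% to 15.8% on the left and 4.39% to 23.1% on the right, and the mitotic share is above it in each library.

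After TMM scaling, 4 of 21 G1 and E2F regulators were higher and 15 lower in early erythroid cells, where 20.9% of all genes were higher and 25.8% lower. Cdk6 was higher in early cells at 125 ± 56.4 against 6.99 ± 3.89 CPM (log2 fold change 4.19, SE 0.27, adjusted p = 2.05e-19). E2f2 was lower in early cells at 32.3 ± 19.2 against 544 ± 120 CPM (log2 fold change -3.88, SE 0.27, adjusted p = 1.62e-18). The CDK4/6 inhibitor gene Cdkn2d was lower in early cells at 21.0 ± 10.5 against 857 ± 586 CPM (log2 fold change -5.24, SE 0.33, adjusted p = 6.11e-20). Of 24 further mitosis genes 24 were lower in early cells, and of 18 further S-phase genes 14 were.

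Nucleus pulposus cells had lower levels of both sets than chondrocytes. Of the 38 genes 28 were lower and none was higher, where 17.0% of all genes were lower, with a median log2 fold change of -1.92 against -0.12 over all genes. The 28 were 12 S-phase and 16 mitotic genes, and the count was 14 without library 1, which held 528 of the nucleus pulposus cells. The nucleus pulposus sums were 2597709, 1503681 and 71370 UMIs, so in library 3 a single UMI was worth 9.11 CPM.

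Top2a had 13.9, 6.91 and 9.11 CPM in nucleus pulposus cells and 98.5, 62.4 and 104 CPM in chondrocytes, a log2 fold change of -2.97 (SE 0.64, adjusted p = 1.69e-04). Mki67 had 14.7, 13.8 and 9.11 CPM against 71.2, 71.1 and 87.8 CPM, a log2 fold change of -2.41 (SE 0.57, adjusted p = 6.29e-04). The cyclin A gene Ccna2 had 6.07, 3.46 and 18.2 CPM against 39.4, 21.0 and 49.9 CPM, a log2 fold change of -2.58 (SE 0.55, adjusted p = 1.68e-04). None of the 3 genes overlapped between the classes. Pcna (32.5, 47.7 and 36.4 CPM against 49.2, 74.1 and 71.8 CPM, adjusted p = 0.144) and the mitotic cyclin gene Ccnb1 (20.7 ± 14.9 against 19.7 ± 14.4 CPM, adjusted p = 0.114) were among the 10 not called.

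Against osteoblasts 9 of 38 genes were lower and 2 higher in nucleus pulposus cells, where 20.5% of all genes were lower and 21.1% higher. The counts are near or below that background, and the median was -0.78 against -0.06 over all genes. Top2a had 70.7, 22.3 and 64.2 CPM in osteoblasts, above the nucleus pulposus cells in each library (log2 fold change -2.14, SE 0.65, adjusted p = 0.00568). The higher ones were Mcm6 (log2 fold change 1.02, SE 0.37, adjusted p = 0.0204) and the ribonucleotide reductase gene Rrm1 (0.92, SE 0.37, adjusted p = 0.0433). Both overlapped between the classes, with Mcm6 at 29.5, 33.9 and 0 CPM against 34.4, 8.62 and 16.9 CPM, so that it was lower in nucleus pulposus cells in libraries 1 and 3. No member was called higher with DESeq2, without the library block, with only these 2 classes in the fit, or without library 2 or library 3. The count was 3 without library 3, 6 without library 1 or library 2, and 21 with a preset doublet rate.

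Against mature neutrophils 3 of 38 genes were higher and 2 lower in nucleus pulposus cells, where 36.5% of all genes were higher and 22.4% lower, and the median was 0.22 against 0.78 over all genes. No mitotic gene was called, and the count of 5 became 1 without library 2 and 3 without library 3. Mki67 had 14.7, 13.8 and 9.11 CPM against 0, 19.9 and 6.01 CPM, which overlap. The higher genes were Mcm6 (29.5, 33.9 and 0 CPM against 11, 6.65 and 10.0 CPM, adjusted p = 0.00424), Rrm1 and Gins2, all with 0 in library 3. Slbp was lower at 32.5, 19.3 and 27.3 CPM against 62.6, 69.8 and 104 CPM (log2 fold change -1.58, SE 0.29, adjusted p = 3.45e-06), without overlap, and the licensing factor gene Cdc6 was the other lower gene with 1 UMI against 6. The mature neutrophil sums of 479937 to 994963 UMIs limit what can be seen, and missing the threshold does not show that levels are alike.

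Chondrocytes, tested against the same mature neutrophil sums, had 25 of 38 genes higher and none lower, where 40.4% of all genes were higher, with a median of 2.08 against 1.03 over all genes. The calls were 18 of 21 mitotic genes (median 2.52) and 7 of 17 S-phase genes (median 1.21). For the S-phase set both the share called and the median were near those of all genes. With only these 2 classes in the fit 24 members passed the filter on low counts and 18 were called, all higher. With DESeq2 24 members were higher and 1 was lower, and with DESeq2 size factors 22 were higher and 1 was lower. Cenpf had 82.2, 69.8 and 47.9 CPM against 7.36, 3.32 and 2.00 CPM, a log2 fold change of 4.34 (SE 0.85, adjusted p = 1.33e-05). Mki67 was higher by a log2 fold change of 2.82 (SE 0.68, adjusted p = 2.94e-04), whereas Mcm5 (18.1, 15 and 14 CPM against 18.4, 8.31 and 8.02 CPM, adjusted p = 0.312) and Pcna (adjusted p = 0.466) were not called.

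The few nucleus pulposus cells with at least 3 mitotic genes without thinning numbered 12, 10 and 1. In library 1 their median depth was 13764 UMIs against 2936.5 in the others, and in library 2 it was 8698 against 9656. Their median level of nucleus pulposus markers per 10000 UMIs was 38.2 against 66.7 in library 1 and 54.3 against 77.2 in library 2, while that of chondrocyte markers was 14.3 against 0 and 8.64 against 3.09. The median B marker level was 0 in these cells and also in the others. In libraries 1 and 2 promyelocyte markers were at 1.15 and 1.01 against 2.86 and 0. Secondary granule markers were at 3.12 and 3.03 against 6.22 and 2.11. Haemoglobin and other late erythroid markers were at 0.636 and 6.69 against 4.21 and 4.07, so higher than in the others in library 2 only. In chondrocytes 81, 22 and 4 cells held 3 mitotic genes, with median depths of 20136, 22661.5 and 18143.5 UMIs against 10256, 11608.5 and 11329 in the others. The part of depth and of mixed barcodes in these cells was not tested.

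Of the 14 CDK inhibitor and antiproliferative genes 3 were higher and 1 lower in nucleus pulposus cells than in chondrocytes, where 14.0% of all genes were higher and 17.0% lower. Cdkn2b, which encodes the CDK4/6 inhibitor p15, had 39.9 ± 5.44 CPM in nucleus pulposus cells against 0.528 ± 0.914 in chondrocytes (log2 fold change 5.53, SE 0.62, adjusted p = 1.47e-09). It was also higher than in osteoblasts, at 1.18 ± 0.748 CPM (log2 fold change 4.96, SE 0.63, adjusted p = 1.26e-08). Cdkn1c, which encodes the CDK inhibitor p57, was lower in nucleus pulposus cells at 26.9 ± 25.7 against 371 ± 62.0 CPM in chondrocytes (log2 fold change -3.32, SE 0.53, adjusted p = 1.21e-06). Against osteoblasts 8 of the 14 were higher and none lower, where 21.1% of all genes were higher. Of 24 further mitosis genes 17 were lower than in chondrocytes and 1 was higher, Pttg1, at 98.1 ± 27.0 against 44.7 ± 10.1 CPM (adjusted p = 2.83e-06; SDs over 3 libraries throughout).

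**Figure D5:**
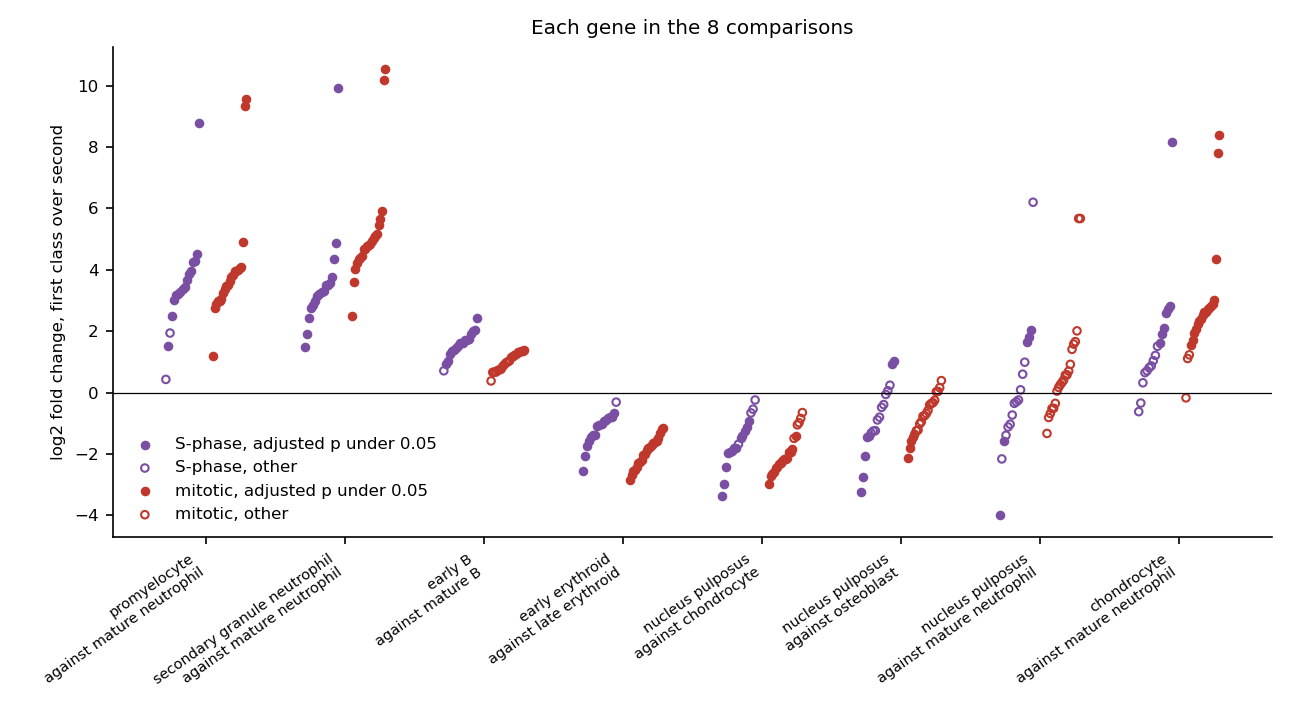
log2 fold change (vertical axis) of each of the 38 genes in the 8 comparisons, with the S-phase set in purple, the mitotic set in red and filled points for an adjusted p under 0.05. Fitted values near or above 5 in comparisons with mature neutrophils include Bub1, Bub1b and Ccne2, which had 0 UMIs there. The text gives their lower bounds for promyelocytes. In the same order the bounds were 18.7-fold, 23.5-fold and 15.2-fold for secondary granule cells and 3.27-fold, 4.14-fold and 5.29-fold for chondrocytes. For nucleus pulposus cells Ccne2 had 9 UMIs and a bound of 2.07-fold. Bub1 and Bub1b in nucleus pulposus cells did not exceed the level that 3 UMIs would give in mature neutrophils, so no fold is given for them. The 2 neutrophil precursor comparisons lie above 0 and nucleus pulposus against chondrocytes lies below 0 for all 38 genes.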

How the data were processed

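Single cells of 3 mouse disc libraries (10x 3′ kit v3) were counted as UMIs per gene and barcode, and the deposited values are raw counts, per the file headers made with Cell Ranger 3.0.1 (library 1) and 6.0.0 (libraries 2 and 3). The submitters' processing notes name Cell Ranger 3.0.2, Seurat 4 and mm10. The 30406 genes listed in all libraries were used. The 38 genes, the further gene lists, the markers and the comparisons were chosen with earlier results of these data known.

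Barcodes needed 500 or more genes and no more than 15% mitochondrial UMIs, and doublets called by Scrublet (scanpy 1.11.5) at its own threshold were removed: 89, 503 and 388 barcodes. Of those removed 48.3%, 81.5% and 74.7% held at least 3 mitotic genes, against 33.9%, 50.3% and 49.0% of those kept, at median depths of 13478 to 19000 and 6484 to 8346.5 UMIs. A cell entered a class with at least 3 of its markers (2 for early B cells) and at least 10 marker UMIs per 10000 (50 for chondrocytes, 100 for promyelocytes and secondary granule cells, 1000 for late erythroid cells). These limits and the doublet threshold were set after the markers were seen in the data, without the 38 genes.

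UMIs were summed per class and library where a class had at least 20 cells (71 sums, 25 classes) and fitted together in edgeR 4.0.16 (R 4.3.3; glmQLFit and glmQLFTest, TMM, filterByExpr) with class and library as terms, and p-values were Benjamini-Hochberg adjusted over 14215 genes. The script was tested on simulated data. Since the 2 class sums compared within a library are of 1 pool of animals, the library is a block, and class sums of the same library deviated together, with median correlations of 0.263, 0.117 and 0.181 over 21 classes. DESeq2 1.42.0 was an alternative. In each comparison, values in every library were to be given for the 4 genes of each set with the largest change at a mean of at least 20 CPM and for Pcna, Mcm5, Ccne1, Ccne2, Mki67 and Top2a. From each further list the 2 largest called changes each way were to be named. The text prints some of these genes, and other members chosen after their values were seen (such as Slbp, Gins2, Cdc6, Rrm1 and Aurkb). Promoter sequences come from RefSeq tables of GRCm38.p6.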

Additional observations from a re-analysis of the deposited data

Results flagged for a closer look

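Cells that the comparisons do not use also held the 2 sets, above the level of the mature neutrophils, which are the background class. Cells that passed no gate held at least 3 S-phase genes in 33.1% and at least 3 mitotic genes in 28.0% of thinned cells (means over libraries). In libraries 1, 2 and 3 the S-phase shares were 26.6%, 31.8% and 40.8%, and the mitotic shares were 20.2%, 29.8% and 34.2%. Cells that passed the gates of more than 1 lineage held 3 S-phase genes in 30.0% and 3 mitotic genes in 41.5%, with mitotic shares of 33.8%, 48.3% and 42.3% by library. Mature neutrophils gave 1.63%, 0% and 0.461% for the S-phase set and 0% in each library for the mitotic set.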

How the results depend on the processing

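Of 112 recomputed counts of called members, 98 stayed within 1.5 times the reported count. With the library left out as replicate block, so that no pairing of the sums is used, the counts were 36, 38, 20, 32, 26, 9, 5 and 23 in the order of the report, each within 1.5 times. Leaving out 1 library in turn gave 35 to 38, 38 to 38, 15 to 36, 32 to 37, 14 to 24, 3 to 6, 1 to 7 and 21 to 29. With only the 2 classes compared, early against mature B cells gave 38, nucleus pulposus against osteoblasts 5 and against mature neutrophils 1, where only 30 and 9 of the members passed the filter in those last 2 fits. Without the filter on low counts the last 2 comparisons gave 18 and 9, and the preset doublet rate gave 21 against osteoblasts. Class totals without TMM factors, added after seeing the data, gave 15 for the erythroid classes. The causes were not tested.

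Over all 38 members and 8 comparisons 111 of 4201 recomputed fold changes changed sign, in the order of the report 0, 0, 0, 13, 5, 39, 44 and 10. Of the 13, 12 were on plain totals. For the 188 fold changes of genes chosen by the naming rule, 25 of 2622 changed sign. On plain totals these were Mcm5 (0.37) and Ccne1 (0.24) between erythroid classes, Pcna against osteoblasts (0.14), and Pcna (0.35) and Top2a (0.28) against mature neutrophils. The others were all of nucleus pulposus cells. Against osteoblasts Pcna ranged from -0.28 to 0.08 with 1 library left out, and Ccne1 from -1.36 to 0.56. Ccne1 became -0.34 without the block, -0.0046 with DESeq2 size factors, -0.06 without the filter and -0.01 at the 25% mitochondrial limit. Against mature neutrophils the ranges with 1 library left out were -0.66 to 0.14 for Pcna, -0.81 to 1.43 for Ccne1 and -4.2e-04 to 0.66 for Ube2c. Ccne1 there became -0.21 with DESeq2, -0.22 without the block, -0.24 with DESeq2 size factors and -0.51 without doublet removal. Ube2c became -0.19 with DESeq2, -0.12 with DESeq2 size factors and -0.74 at the preset doublet rate, where Mki67 became -0.04 and Ccnb2 -0.64. Mki67 became -0.13 with 1 more marker.

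Of 650 recomputed mean shares, 460 stayed within the SD over libraries of the reported mean and 190 moved further. Some of the mean shares follow, mainly ones that moved, as S-phase values, then mitotic values. At 1000 UMIs they were 1.83% in chondrocytes, 21.1%, 7.7%, 33.5%, 17.4%, 4.6% and 65.6% (promyelocytes, secondary granule, early B, intermediate B, mature B and early erythroid cells), then 31.1%, 30.5%, 39.8%, 26.9%, 9.98% and 67.8% in the same classes, 0.109% in mature neutrophils and 83.5% in late erythroid cells. At 4000 UMIs they were 2.15%, 13.8%, 7.1% and 6.99% (nucleus pulposus, chondrocyte, annulus, osteoblast) and 84.5%, 32.5%, 81.5%, 84.8%, 52.7% and 96.8%, then 80.2%, 52.8%, 75.2%, 93.0% and 55.5%. Without thinning they were 10.1%, 36.2%, 30.9% and 32.1%, and 97.6%, 48.5%, 69.9%, 31.9% and 98.6% (no mature B), then 12.1% in osteoblasts, 98.0%, 56.8%, 63.6%, 34.3% and 99.1%, and 0.734% in mature neutrophils. With at least 2 genes they were 4.2%, 13.7%, 9.0% and 8.43%, 74.4%, 28.6%, 67.6%, 45.0%, 25.4% and 94.4%, and 3.5% in mature neutrophils, then 73.6%, 50.5%, 63.3% and 47.1%, and 1.21% in mature neutrophils. With at least 4 they were 34.0%, 10.8%, 47.5%, 28.5%, 6.72% and 77.9%, then 40.9%, 37.5%, 47.8% and 38.9%. Mature neutrophil mitotic shares were 0.252% without doublet removal, 0.267% at the 25% limit and 0.127% without shared barcodes, where S-phase shares were 4.33% in osteoblasts and 50.8% in promyelocytes. The preset doublet rate gave 0.806% and 1.49% in nucleus pulposus cells and 0.567% and 0.142% in annulus or tendon fibroblasts, and 1 more marker gave 53.2% in early B cells (mitotic). The 25 nucleus pulposus cells of library 3 limit every value of that class.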
